A study of Homo sapiens with 12 samples.

Results

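The spliceosome cuts introns out of pre-mRNA. It is assembled anew on each intron from small nuclear ribonucleoproteins, in which a small nuclear RNA is bound by a fixed set of proteins. The U2 particle, with its SF3a and SF3b protein complexes, marks the branch point of the intron, the U5 particle holds the exons at the catalytic centre, and RNA helicases drive the changes in RNA pairing and take the complex apart afterwards. These proteins are needed in all dividing cells.

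The 10 genes described here encode core proteins and helicases of this machinery, and all 10 were found by their Ensembl identifiers among the 19580 genes of the deposited table. They were chosen as a protein group and not by a cut on a measured value. Earlier results of these data were known when the choice was made. The U5 particle is represented by PRPF8 (ENSG00000174231, chr17:1650629-1684867), SNRNP200 (ENSG00000144028, chr2:96274338-96305546) and EFTUD2 (ENSG00000108883, chr17:44849948-44899445). The SF3b complex is represented by SF3B1 (ENSG00000115524, chr2:197389784-197435093), SF3B2 (ENSG00000087365, chr11:66052364-66069308) and SF3B3 (ENSG00000189091, chr16:70523816-70577668). SF3A1 (ENSG00000099995, chr22:30331988-30356894) belongs to SF3a, and U2AF2 (ENSG00000063244, chr19:55655035-55674716) binds the intron end before U2 arrives. The helicases are DHX9 (ENSG00000135829, chr1:182839347-182887982) and DHX15 (ENSG00000109606, chr4:24527475-24584554). Gene positions are those of RefSeq on GRCh38.p14.

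Ribosome footprints, the mRNA fragments that ribosomes shield from RNase I, were sequenced from HAP1, a near-haploid wild-type human cell line derived from KBM-7. The 4 groups had 3 biological replicates each. Cells were left untreated, were labelled for 18 h with 5 uM 4-thiouridine (4SU), received UVA at 6 kJ per square metre and were harvested after 30 min, or received both (4SU+UVA). The wait of 30 min is given for the irradiated groups only, so light and the wait cannot be told apart. 4SU is a uridine analogue that enters new RNA and, under UVA, bonds covalently to protein in contact with it, so the combined group is the one in which RNA-protein crosslinks were induced. Values are RPKM, reads per kilobase of transcript scaled to a fixed library total. A fall or a steady value is therefore relative to the other footprints of the library. A change of all footprints together cannot be read from these values. Footprints report mRNA amount and ribosome load together, and in bulk samples fewer cells with an mRNA and less of it per cell cannot be told apart.

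The 12 libraries held 1899854 to 5832366 reads, with the lowest total in a 4SU+UVA library. The 10 genes were read 123 to 10995 times per library. Counting error was therefore at most 9.02% of a value, for SF3B1 in 4SU+UVA replicate 2. These errors cover counting alone, and whether PCR copies of a molecule were counted as separate reads is not stated. The table lists 1 transcript per gene, and the lengths behind the RPKM values ran from 2998 nt (DHX15) to 9692 nt (SF3B3), apart from SF3B1. Of the lengths over all genes only 34.4% were divisible by 3, so they are not coding lengths alone. Footprints lie mainly on coding sequence, so RPKM levels of different genes also depend on how much of each transcript is coding. Changes of the same gene between groups are not affected by this. For SF3B1 the listed transcript has only 651 nt, far shorter than the gene's main coding mRNA, and how reads were counted is not stated. Its values may therefore cover only the reads on that short transcript, and its level is not ranked against the others.

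The gene starts of 4 members are shown for orientation, from RefSeq (GRCh38.p14), each with 120 bases before and 20 after the start. Of the 10 genes, 9 had an entry, and SF3B3 is named only. SNRNP200 and DHX9 are the members with the lowest estimates under 4SU+UVA, and U2AF2 is the member whose footprints did not pass the test there. PRPF8 is the U5 scaffold with the highest listed RPKM in untreated cells. Capitals mark matches, on either strand, to CCGGAAG (the core bound by ETS factors) or TGCGCA (part of the NRF1 motif).
PRPF8, chr17:1684848-1684987, minus strand: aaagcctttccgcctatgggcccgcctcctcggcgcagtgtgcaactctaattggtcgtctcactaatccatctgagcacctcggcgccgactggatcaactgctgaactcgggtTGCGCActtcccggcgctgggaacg
SNRNP200, chr2:96305527-96305666, minus strand: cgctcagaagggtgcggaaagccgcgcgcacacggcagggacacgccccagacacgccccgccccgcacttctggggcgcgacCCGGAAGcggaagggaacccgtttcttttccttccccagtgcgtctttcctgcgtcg
DHX9, chr1:182839227-182839366, plus strand: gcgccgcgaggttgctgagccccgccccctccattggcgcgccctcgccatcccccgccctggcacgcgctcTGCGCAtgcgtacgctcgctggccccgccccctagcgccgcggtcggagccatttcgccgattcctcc
U2AF2, chr19:55654915-55655054, plus strand: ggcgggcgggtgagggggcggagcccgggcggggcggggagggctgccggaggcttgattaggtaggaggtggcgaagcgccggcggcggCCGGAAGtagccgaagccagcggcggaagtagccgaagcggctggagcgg

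CCGGAAG occurred at 4 members (SNRNP200, SF3B2, SF3A1 and U2AF2) and at 7.37% of the 35116 RefSeq starts searched over the same window. TGCGCA occurred at 2 members (PRPF8 and DHX9) and at 5.39% of starts. ATGGCGGC, the core of the YY1 motif, occurred at 2 members (SF3A1 and DHX15) and at 1.08% of starts. TATAAA, the TATA box, occurred at 0 members and at 6.01% of starts. These matches describe letters in a window and were not related to the footprint values.

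In untreated cells the members were abundant and closely reproduced. PRPF8 had the highest listed value at 260.4 ± 1.28 RPKM and SF3A1 the lowest at 79.6 ± 1.74 RPKM (SD, n = 3 each). Such levels depend on the coding part of each listed transcript, which was not worked out, so the order holds for RPKM as listed. Leaving out SF3B1, the means in descending order were PRPF8, U2AF2, DHX15, SF3B2, DHX9, SNRNP200, EFTUD2, SF3B3 and SF3A1. U2AF2 and DHX15, and DHX15 and SF3B2, overlapped in their libraries, and all other neighbours in this order lay apart. By mean density over the 12 libraries the members other than SF3B1 lay between the 87.8th percentile (SF3B3) and the 96.8th percentile (U2AF2) of the 11510 genes tested. All 10 members together, SF3B1 included, took 0.812% to 0.822% of the reads of an untreated library.

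With 4SU+UVA this share was 0.363% to 0.376%, and every such library lay below every untreated one (0.371 ± 0.00692% against 0.817 ± 0.00483%, SD, n = 3 each, p = 0.10 by an exact permutation over libraries, two-sided, which is the lowest value this design allows). The footprints of 9 of the 10 members fell and those of U2AF2 did not pass the test (limma, adjusted p under 0.05). Of all genes tested, 18.4% were called lower in this comparison and 40.6% higher. The median change of the members was -1.19 on the log2 scale, from -1.82 (DHX9) to 0.02 (U2AF2), and that of all genes was 0.23. In 9 members all 3 treated libraries lay below all untreated ones, which held for 20.2% of genes. The split over all genes depends on the scaling, with 3107 higher and 2888 lower genes under median centring of the libraries, and 3011 and 2910 with quantile normalisation, against 4674 and 2122. Under that centring all 10 members passed as lower.

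**Figure D1:**
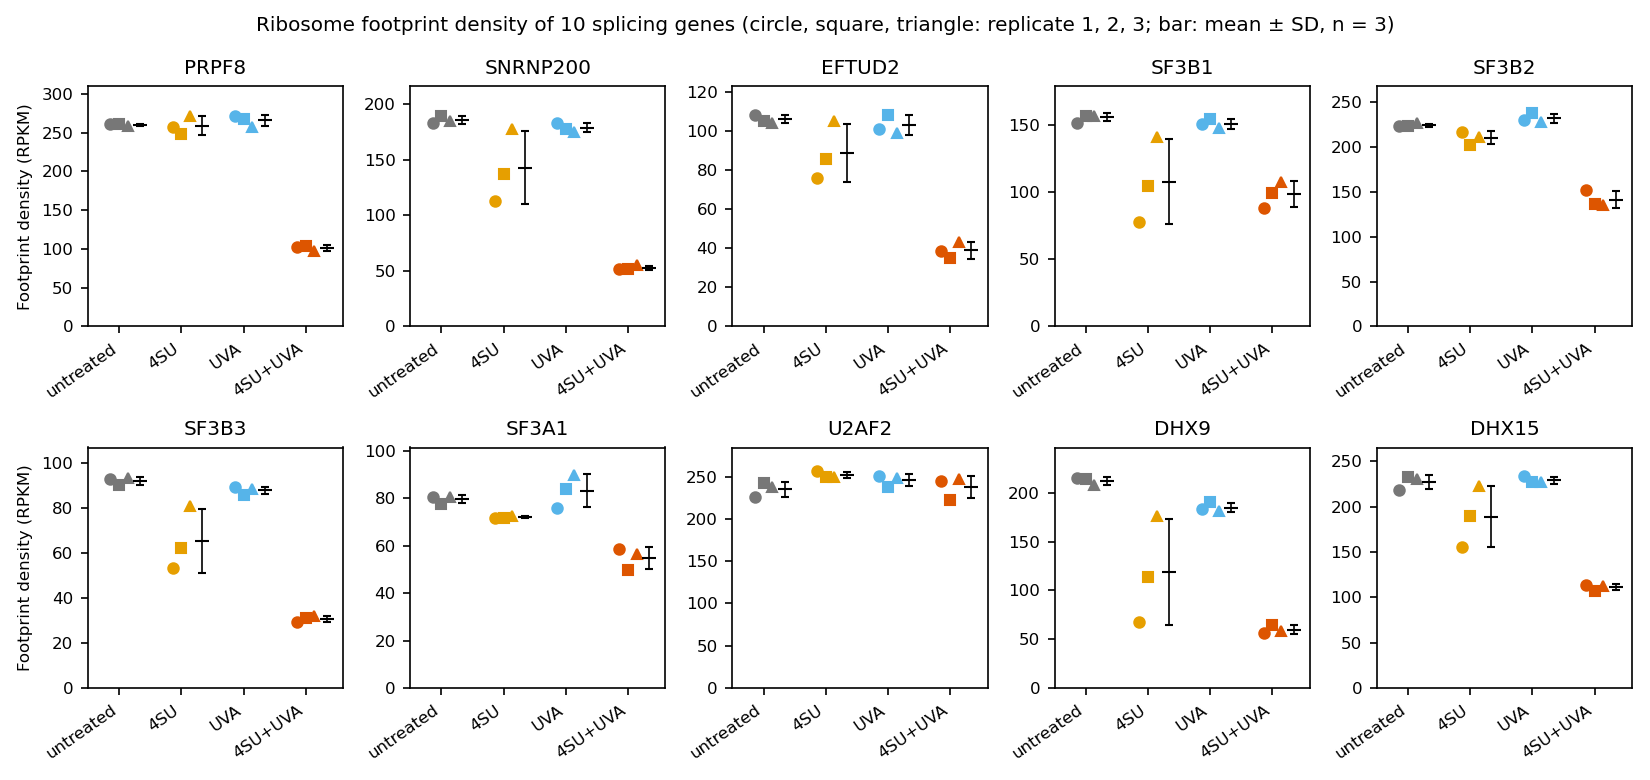
Footprint density (RPKM, axes from 0) of the 10 members in each library of the 4 groups, with mean ± SD beside the points (n = 3). The 4SU+UVA points of 9 members lie below all untreated points, those of U2AF2 lie on both sides of them, and the 4SU points of DHX9 spread from 67.8 to 176 RPKM.

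PRPF8 is the largest protein of the spliceosome core and cradles its catalytic RNA. Its untreated libraries held 261, 261 and 259 RPKM, and its 4SU+UVA libraries 102, 104 and 97.1 RPKM. The groups were far apart, and the change was -1.36 (SE 0.05, limma adjusted p = 2.4e-10), which is 2.57-fold lower.

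SNRNP200 is the helicase that unwinds the paired U4 and U6 RNAs before catalysis. It was read at 183, 189.8 and 185 RPKM in untreated cells and at 51.7, 51.8 and 55.0 RPKM with 4SU+UVA. No library of one group came near the other, and its fall of 3.49-fold (log2 change -1.80 with SE 0.11, limma adjusted p = 1.6e-08) was steeper than that of PRPF8. Among the 11510 genes it ranked 22 from the lowest change, just behind DHX9 at rank 20.

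EFTUD2, the GTPase of the U5 particle, is bound to PRPF8 and controls the activity of SNRNP200. It went from 108, 105 and 104 RPKM to 38.6, 34.9 and 43.3 RPKM. That is 2.70-fold lower, with a log2 change of -1.43 (SE 0.10, limma adjusted p = 6.5e-08). The U5 proteins thus all fell, each by more than the spread of its libraries.

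The SF3b proteins hold the branch point helix and fell unevenly. SF3B3, a scaffold of propeller domains, was read at 92.9, 90.2 and 93.5 RPKM untreated and at 29.3, 31.2 and 31.9 RPKM with 4SU+UVA. Its density was 2.96-fold lower (log2 change -1.57, SE 0.11, limma adjusted p = 5.1e-08). SF3B2, which contacts the intron beside the branch point, held 223, 223 and 226 RPKM and then 152, 136 and 135 RPKM. Its groups also lay apart, but the second was only 1.59-fold lower, at a log2 change of -0.67 (SE 0.06, limma adjusted p = 3.4e-07). SF3B1, the subunit that clamps the branch point helix, was listed, on the 651 nt transcript whose counting is not stated, at 152, 157 and 157 RPKM untreated and 88.4, 99.4 and 108 RPKM with 4SU+UVA (1.58-fold lower, log2 change -0.66 with SE 0.15, limma adjusted p = 0.0014).

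SF3A1, which ties SF3a to the U2 particle, also fell. It held 80.5, 77.6 and 80.8 RPKM untreated and 58.6, 49.6 and 56.4 RPKM with 4SU+UVA (1.45-fold lower, log2 change -0.54 with SE 0.08, limma adjusted p = 3.5e-05). U2AF2, the large subunit of the factor that reads the polypyrimidine tract, held 226, 243 and 238 RPKM untreated and 245, 223 and 247 RPKM with 4SU+UVA. Its groups overlapped, and its change was 0.02 with a 95% interval of -0.10 to 0.13 (limma adjusted p = 0.82). Relative to the median gene U2AF2 lay at -0.22. After median centring its change was -0.16 (limma adjusted p = 0.042, where the alternatives run from 0.042 to 0.94), and with quantile normalisation -0.04.

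DHX9, a helicase that opens double-stranded RNA and RNA-DNA hybrids and is not a fixed spliceosome subunit, had the lowest estimate together with SNRNP200. It held 215, 214 and 208 RPKM untreated and 56.6, 64.8 and 58.2 RPKM with 4SU+UVA, which is 3.53-fold lower (log2 change -1.82 with SE 0.22, limma adjusted p = 7.2e-06). DHX15 releases the excised intron lariat and takes the spent spliceosome apart. It went from 218, 233 and 230.3 RPKM to 114, 107 and 113 RPKM, which is 2.04-fold lower (log2 change -1.03 with SE 0.09, limma adjusted p = 6.0e-07). The order of DHX9 and SNRNP200 (-1.80) is not settled, as it turned without untreated replicate 1 (-1.81 against -1.82), without 4SU+UVA replicate 1 (-1.78 against -1.79) and without 4SU+UVA replicate 3 (-1.80 against -1.83). For both helicases every treated library lay below every untreated one. The SE of DHX9 is the largest of the 10 because the model shares 1 spread over all groups, and its 4SU libraries, given further on, differed by up to 2.60-fold.

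**Figure D2:**
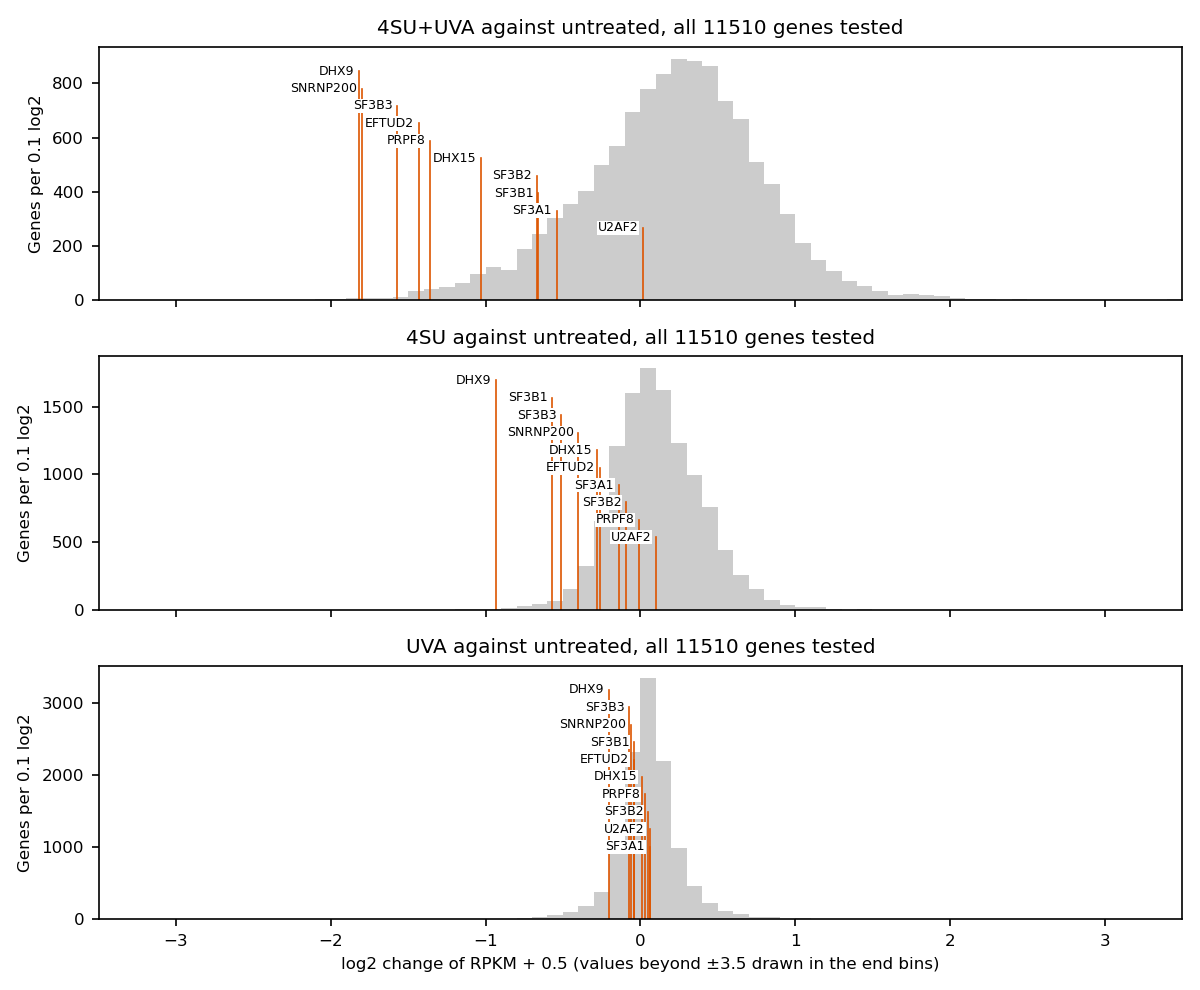
Distribution of the log2 change over all 11510 genes tested (grey bars, genes per 0.1 log2) for 4SU+UVA, 4SU and UVA against untreated, with the 10 members as labelled lines. With 4SU+UVA the members range from -1.82 to 0.02 while the median gene lies at 0.23, and with UVA alone they range from -0.20 to 0.06.

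The size of the fall was set beside the length of the listed transcript. Across the 10 members, the 4SU+UVA change and log2 transcript length gave Pearson r = -0.53 and Spearman rho = -0.54, and without SF3B1 r = -0.62 and rho = -0.50 over 9 members. With log2 density in untreated cells r was 0.07 and rho 0.12. These values describe 10 genes read in the same libraries and carry no test. The changes were -1.57 for SF3B3 (9692 nt), -1.36 for PRPF8 (7280 nt), -1.80 for SNRNP200 (7194 nt), -0.54 for SF3A1 (5090 nt) and -1.82 for DHX9 (4493 nt). They were -1.43 for EFTUD2 (4326 nt), -0.67 for SF3B2 (3272 nt), 0.02 for U2AF2 (3022 nt) and -1.03 for DHX15 (2998 nt). SF3B1 (651 nt) lay at -0.66. Apart from SF3B1, the members lay between the 57.6th (DHX15) and 97.7th (SF3B3) percentile of length among the genes tested.

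UVA alone left the members near their untreated levels. No member passed (0 of 10 by limma, and 0 of 10 at an unadjusted p under 0.05), and 0.652% of all genes did. The median change was -0.01, beside 0.05 for all genes. DHX9 was lowest, at 184, 191 and 181 RPKM against 215, 214 and 208 RPKM untreated. All 3 UVA libraries of DHX9 lay below all untreated ones, as for 3.93% of genes, and its change of -0.20 did not pass (95% interval -0.66 to 0.27, limma adjusted p = 0.89, and 0.095 when the model held only the untreated and UVA libraries). SF3B3 was the other member without overlap on the low side, at 89.2, 85.9 and 88.4 RPKM (log2 -0.07, 95% interval -0.30 to 0.16, limma adjusted p = 0.93). SF3B2 had all UVA libraries above the untreated ones, at 229.7, 238 and 228 RPKM (log2 0.05, 95% interval -0.07 to 0.17, limma adjusted p = 0.90), as for 12.8% of genes. The intervals of the other 7 members lay between -0.35 and 0.27, with the widest for SF3B1 (-0.35 to 0.27) and narrower ones for others, such as -0.09 to 0.14 for PRPF8 and -0.06 to 0.18 for U2AF2.

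4SU alone lowered 4 members, DHX9, SF3B1, SF3B3 and SNRNP200, and raised 0 (limma, adjusted p under 0.05), where 3.12% of all genes were lower and 11.3% higher. Over all genes that is 1295 higher and 359 lower, against 640 and 1080 under median centring and 678 and 497 with quantile normalisation. The median change of the members was -0.27 beside 0.09 for all genes. In 6 members all 4SU libraries lay below all untreated ones, as for 10.1% of genes, and in U2AF2 all lay above, as for 25.1%. These comparisons share their untreated libraries with those above.

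The 4SU libraries differed widely among themselves for some members and hardly at all for others. DHX9 held 67.8, 114 and 176 RPKM in 4SU replicates 1, 2 and 3, which is 31.9%, 53.7% and 82.9% of its untreated mean. The highest was 2.60 times the lowest, although counting error was 2.87% or less. The lowest library came close to the 4SU+UVA level of 59.8 ± 4.35 RPKM (SD, n = 3), and the highest lay nearer the untreated one. The DHX9 change was -0.93 (SE 0.22, limma adjusted p = 0.012), but -0.58 without replicate 1 (limma adjusted p = 0.020) and -1.27 without replicate 3 (adjusted p = 2.6e-04, where the alternatives run from 2.6e-04 to 0.041).

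SNRNP200 showed the same order of libraries, with 113, 137 and 178 RPKM. Its change of -0.40 (SE 0.11, limma adjusted p = 0.027) did not pass in 8 of 21 alternatives. It was -0.25 without 4SU replicate 1 (adjusted p = 0.11) and -0.39 without 4SU replicate 2 (adjusted p = 0.087). Without untreated replicate 1, 2 or 3 the adjusted p was 0.057, 0.083 or 0.073, and with only these groups' libraries 0.067. SF3B3 held 53.3, 62.1 and 80.9 RPKM (log2 -0.51, SE 0.11, limma adjusted p = 0.0077, and -0.38 with adjusted p = 0.033 without replicate 1). SF3B1 held 77.7, 105 and 141 RPKM on 202, 304 and 414 reads. Its change of -0.57 (SE 0.15, limma adjusted p = 0.019) became -0.35 without 4SU replicate 1 (adjusted p = 0.063). It also missed the threshold without 4SU replicate 2, untreated replicate 2 or untreated replicate 3 (adjusted p = 0.059, 0.058 and 0.059). Replicate 1 was thus the lowest and replicate 3 the highest for each of the 4 members called, and replicate 3 stood at 82.9% or more of the untreated mean for all of them.

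DHX15 (156, 189.9 and 223 RPKM) and EFTUD2 (75.8, 85.4 and 105 RPKM) had the same order, with changes of -0.28 and -0.26 that missed the threshold (limma adjusted p = 0.062 and 0.10). Without replicate 3 both passed, at -0.40 (adjusted p = 0.0033) and -0.39 (adjusted p = 0.0095). The remaining members stayed closer to their untreated levels. PRPF8 held 258, 248 and 272 RPKM (log2 -0.01, 95% interval -0.12 to 0.11), SF3B2 217, 202 and 211 RPKM (log2 -0.09, 95% interval -0.22 to 0.03), SF3A1 71.8, 71.7 and 72.5 RPKM (log2 -0.14, 95% interval -0.31 to 0.02) and U2AF2 257, 249.8 and 250.0 RPKM (log2 0.10, 95% interval -0.02 to 0.22). None of these 4 passed (limma adjusted p = 0.94, 0.30, 0.22 and 0.25).

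**Figure D3:**
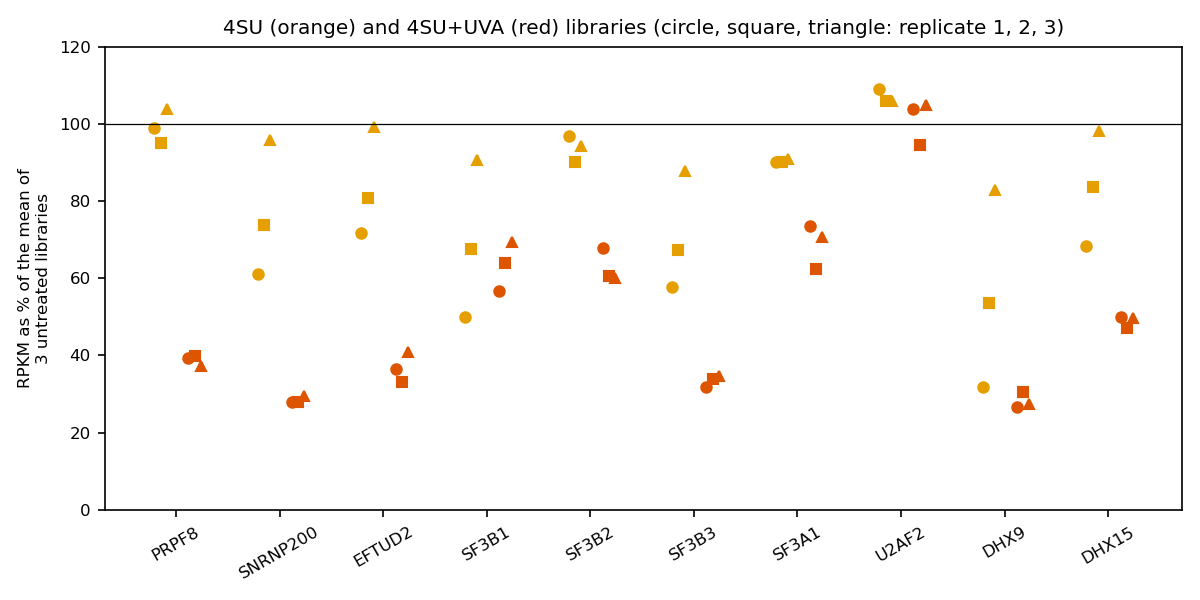
RPKM of each 4SU and 4SU+UVA library as a percentage of the mean of the 3 untreated libraries, for the 10 members (horizontal line at 100%). The 4SU points of DHX9 lie at 31.9%, 53.7% and 82.9%, while those of SF3A1 lie between 90.1% and 91.0%.

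In all, 6 members had a coefficient of variation over 10% among the 4SU libraries, with a median of 17.1% over the 10 members. It was 1.94% in untreated, 2.53% with UVA and 6.20% with 4SU+UVA. Over the 3935 genes of at least 20 RPKM on average the medians were 6.91% with 4SU, 4.72% in untreated, 5.28% with UVA and 7.53% with 4SU+UVA. A property of the whole libraries moved in the same order, since the mean transcript length per read was 3036, 3064 and 3099 nt in 4SU replicates 1, 2 and 3, against 3107 to 3134 nt in untreated libraries and 2753 to 2828 nt with 4SU+UVA. The depth of these libraries was 3991129, 4450172 and 4514227 reads. The part of either in the spread was not tested. With each library centred on its median, 8 members passed as lower with 4SU, and without replicate 1 the count was 2 (SF3B3 and DHX9). Leaving out 4SU replicate 2, or either of untreated replicates 2 and 3, or the variance trend, also gave 2. Leaving out 4SU replicate 3 gave 6.

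Light in cells that carried 4SU lowered 8 members (4SU+UVA against 4SU, limma), where 19.0% of all genes were lower. PRPF8, whose change with 4SU alone was -0.01, fell by 1.35 on the log2 scale (SE 0.05, limma adjusted p = 3.5e-10), almost its whole change from untreated cells. SNRNP200 changed by -1.40 (SE 0.11, adjusted p = 3.5e-07), EFTUD2 by -1.17 (SE 0.10, adjusted p = 7.9e-07) and SF3B3 by -1.05 (SE 0.11, limma adjusted p = 3.5e-06). DHX15 (-0.75), SF3B2 (-0.58) and SF3A1 (-0.39) also fell (limma adjusted p = 2.0e-05, 2.4e-06 and 8.0e-04). DHX9 changed by -0.89 (SE 0.22, limma adjusted p = 0.0041), and by -0.55 without 4SU replicate 3 (adjusted p = 0.0096).

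SF3B1 and U2AF2 were the members that did not pass here. For SF3B1 the change was -0.09 (95% interval -0.40 to 0.22, limma adjusted p = 0.64). Its 4SU libraries, at 77.7 to 141 RPKM, enclosed its 4SU+UVA libraries, and without 4SU replicate 1 the change was -0.31 (adjusted p = 0.034). U2AF2 changed by -0.08 (95% interval -0.20 to 0.03, limma adjusted p = 0.24, and 0.041 with quantile normalisation at -0.13), with all its 4SU+UVA libraries below all its 4SU libraries. That was so for 21.4% of genes and for 9 members, SF3B1 being the exception.

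4SU in irradiated cells (4SU+UVA against UVA) lowered 9 members, again without U2AF2, where 19.8% of genes were lower (2278, beside 3989 higher, or 2683 and 3138 under median centring, and 2820 and 2900 with quantile normalisation). In those 9 members all 4SU+UVA libraries lay below all UVA libraries, as for 21.5% of genes. The median member changed by -1.22 and the median gene by 0.18. SNRNP200 lay at -1.75 (SE 0.11, limma adjusted p = 1.8e-08), DHX9 at -1.62 (SE 0.22, adjusted p = 2.3e-05) and SF3B3 at -1.50 (SE 0.11, adjusted p = 6.9e-08). This comparison and the preceding ones share their 4SU+UVA libraries.

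Whether the combination went beyond its parts was read from the interaction, the UVA change with 4SU minus the UVA change without it. It passed as negative for 7 members (limma, 12 libraries), where 14.1% of all genes were below and 10.7% above the sum of the parts. That is 1624 below and 1233 above, but 1409 and 1435 under median centring, and 1648 and 1288 with quantile normalisation. PRPF8 lay at -1.38 (SE 0.08, limma adjusted p = 3.5e-08), whose change with either treatment alone did not pass. SNRNP200 lay at -1.35 (SE 0.16, adjusted p = 3.7e-05), within its error of PRPF8 and at -1.50 against -1.39 without 4SU replicate 1. EFTUD2 lay at -1.13 (SE 0.14, adjusted p = 7.4e-05) and SF3B3 at -0.98 (SE 0.15, limma adjusted p = 3.8e-04). DHX15 (-0.76), SF3B2 (-0.62) and SF3A1 (-0.45) passed with smaller values (limma adjusted p = 7.9e-04, 8.3e-05 and 0.0066).

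The interaction did not pass for the other 3 members. DHX9 lay at -0.69 (SE 0.31, limma adjusted p = 0.11), with its 4SU libraries spread as described. It passed without 4SU replicate 1 (-1.04, adjusted p = 7.2e-04, where the alternatives run from 7.2e-04 to 0.22) and lay at -0.36 without replicate 3. SF3B1 lay at -0.05 (95% interval -0.49 to 0.39, limma adjusted p = 0.88) and U2AF2 at -0.15 (95% interval -0.31 to 0.02, adjusted p = 0.20).

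**Figure D4:**
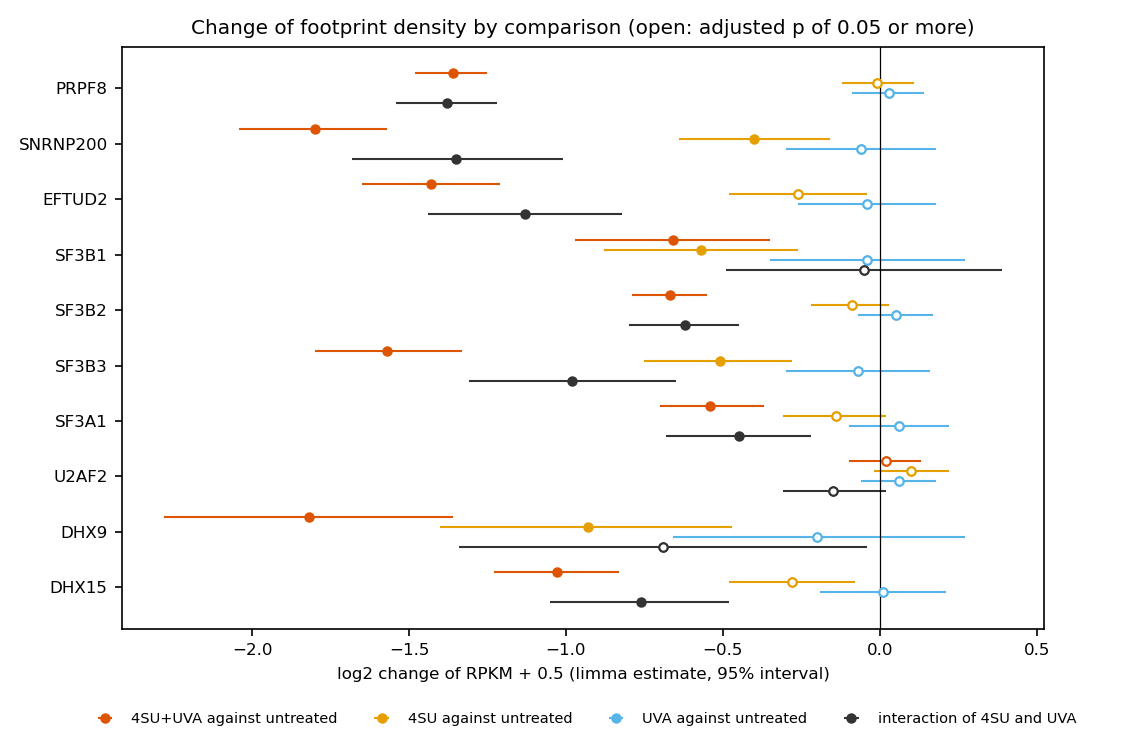
Log2 change with its 95% interval for each member in 3 comparisons with untreated cells and for the interaction (open circles: adjusted p of 0.05 or more). PRPF8 lies at -1.36 with 4SU+UVA and near 0 with either treatment alone, SF3B1 at -0.66 with 4SU+UVA and -0.57 with 4SU, and U2AF2 near 0 throughout.

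Ratios between members do not depend on how a library is scaled, and 8 were compared between each treated group and untreated cells, chosen after the values had been seen. Each of the 24 comparisons was an exact two-sided permutation test that cannot give p under 0.10. None could therefore pass, and adjusted over the 24 the lowest value was 0.15. A ratio whose libraries do not overlap between 2 groups has that p of 0.10. The share of other gene pairs without overlap was not worked out, so such separations, here and below, are given as values only. PRPF8 was read at 1.40 ± 0.0261 times the density of SNRNP200 in untreated cells and at 1.92 ± 0.131 times with 4SU+UVA (SD, n = 3 each, exact permutation p = 0.10, adjusted p = 0.15). All 3 treated libraries (1.77 to 2.01) lay above all untreated ones (1.38 to 1.43). So did those with 4SU alone, at 1.87 ± 0.376 (1.53 to 2.27), and with UVA alone, at 1.49 ± 0.0143. The ratio of SNRNP200 to EFTUD2 went from 1.76 ± 0.0556 to 1.36 ± 0.108 without overlap, while that of PRPF8 to EFTUD2, at 2.47 ± 0.0377 and 2.62 ± 0.366, overlapped (exact permutation p = 0.70, n = 3 each).

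In the U2 group the densities of SF3B2 and SF3A1 were higher relative to SF3B3 in the 4SU and 4SU+UVA libraries. SF3B2 was read at 2.43 ± 0.0344 times SF3B3 in untreated cells and at 4.59 ± 0.522 times with 4SU+UVA, and SF3A1 at 0.864 ± 0.00265 and 1.79 ± 0.205 times SF3B3 (SD, n = 3 each). With 4SU alone these ratios were 3.31 ± 0.732 (2.61 to 4.07) and 1.13 ± 0.226 (0.896 to 1.35), also above all untreated libraries. With UVA alone SF3B2 stood at 2.58 to 2.77 times SF3B3, above all untreated libraries. SF3A1 stood at 0.854 to 1.02 times SF3B3 with UVA alone, overlapping the untreated libraries. SF3A1 thus had a lower listed RPKM than SF3B3 in every untreated library (0.861 to 0.866) and a higher one in every 4SU+UVA library (1.59 to 2.0). SF3B2 against SF3A1 changed little, from 2.82 ± 0.0483 to 2.57 ± 0.172, although without overlap. U2AF2 went from 2.96 ± 0.163 to 4.35 ± 0.158 times SF3A1, and stood at 3.45 to 3.57 with 4SU alone. DHX15 and DHX9, read at a ratio of 1.07 ± 0.0488 in untreated cells, stood at 1.87 ± 0.187 with 4SU+UVA, at 1.74 ± 0.520 with 4SU alone and at 1.24 ± 0.0418 with UVA alone (1.19 to 1.27, above the untreated 1.02 to 1.11).

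**Figure D5:**
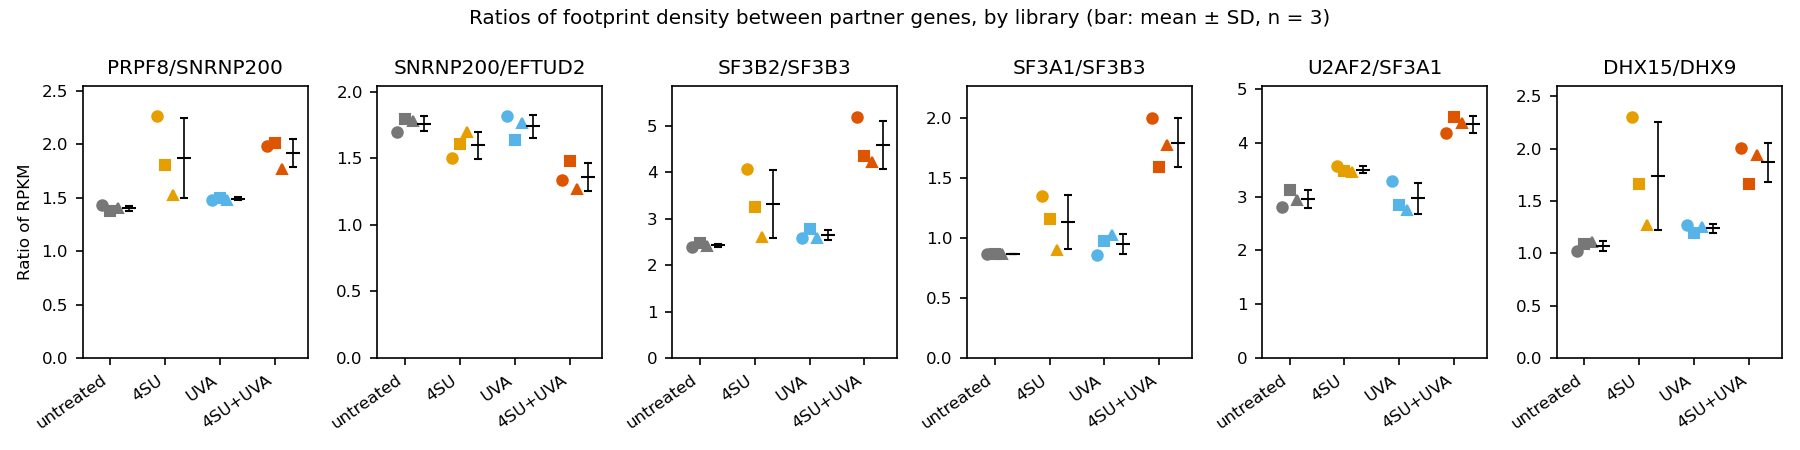
Ratios of RPKM between partner genes in each library (axes from 0, mean ± SD beside the points, n = 3). SF3A1/SF3B3 lies at 0.861 to 0.866 in untreated and 1.59 to 2.0 in 4SU+UVA libraries, and DHX15/DHX9 spreads from 1.27 to 2.30 among the 4SU libraries.

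With 4SU+UVA the order, again without SF3B1, was U2AF2 (238 ± 13.2 RPKM), SF3B2 (141 ± 9.67), DHX15 (111 ± 3.47), PRPF8 (101 ± 3.52), DHX9 (59.8 ± 4.35), SF3A1 (54.9 ± 4.68), SNRNP200 (52.8 ± 1.87), EFTUD2 (38.9 ± 4.19) and SF3B3 (30.8 ± 1.34 RPKM, SD, n = 3 each). In RPKM as listed, PRPF8 thus went from the first place to the fourth. The libraries of DHX9 and SF3A1, and of SF3A1 and SNRNP200, overlapped, and other neighbours lay apart.

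Over the 12 libraries, SNRNP200, SF3B3 and DHX15 followed the mean of the other 9 members most closely (Pearson r = 1.0 each after rounding), and U2AF2 (r = 0.11) and SF3B1 (r = 0.78) least. Of 3925 other genes with at least 20 RPKM on average, ENSG00000141367.12 and ENSG00000131747.15 were most like the mean of the members (r = 0.998 each, 12 libraries). The first went from 323 RPKM in untreated cells to 192 with 4SU, 300.0 with UVA and 53.4 with 4SU+UVA, and the second from 202 to 141, 198 and 48.8 RPKM. The points share 4 groups of libraries, so the correlations rest largely on the group means and carry no test.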

How the data were processed

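The authors deposited 1 table of RPKM values for 19580 genes in 12 ribosome footprint libraries. STAR 2.7.10a and hg38 are named in the submitters' processing notes, while how reads were counted, with which annotation and filters, is not stated in what was used here. From the steps between low RPKM values, each library's total and each gene's transcript length and reads were worked out (tolerance 0.001 reads, tested on simulated data). The genes held over 99% of each total.

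Changes were tested with limma 3.58.1 (R 4.3.3, lmFit and trended eBayes) on log2(RPKM + 0.5), in 1 model of 4 group means over 12 libraries. Fold changes are on that scale and understate those of low genes. The 11510 genes with at least 1 RPKM in 3 libraries were kept, all 10 members among them. P-values are two-sided, adjusted by Benjamini and Hochberg over all genes, with a threshold of 0.05. The model was tested on simulated data.

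The members, lists and comparisons were chosen with earlier results of these data known. All 10 members are named, by the symbols in the definition of the group. The rule also asked for 6 lists of other splicing genes (108 symbols), cell type markers and named genes of like pattern. As 0 identifiers could be matched to symbols, these were not tested, HAP1 identity was not checked, and 2 identifiers are printed. Across the 12 replicate pairs the chi-square per gene ran from 1.70 to 5.55, above counting error, so none looked like a repeated library. Alternatives covered the pseudocount, filter, scaling, variance trend, replicate block, libraries in the model and each library left out.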

Additional observations from a re-analysis of the deposited data

Results flagged for a closer look

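The UVA change differed between cells with and without 4SU, by the interaction term of the model, for 7 of the 10 members (limma, 12 libraries, adjusted p under 0.05). The difference was -1.38 for PRPF8, -1.35 for SNRNP200, -1.13 for EFTUD2, -0.98 for SF3B3, -0.76 for DHX15, -0.62 for SF3B2 and -0.45 for SF3A1 on the log2 scale. Of all genes tested 14.1% passed in this direction. The groups of 3 libraries were too small to test for single outlying libraries, so the spread of the 4SU libraries of DHX9 (67.8 to 176 RPKM) is given as values only.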

How the results depend on the processing

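The counts of members that passed with 4SU+UVA against untreated (9), 4SU (8) and UVA (9), with UVA alone (0) and for the interaction (7) stayed within 1.5 times of these values under all alternatives run, at 9 to 10, 8 to 9, 9, 0 and 7 to 8. The count with 4SU alone (4) was 8 under median centring and 2 without the variance trend, and 2 to 6 when single libraries were left out. Of all genes, 1654 passed with 4SU alone, and 726 to 2050 without single libraries. UVA alone passed at 75 genes, but at 45 with no filter on low values, 42 with quantile normalisation and 27 without the variance trend. The cause was not tested. With the replicate number as a block, 9, 4, 0, 8, 9 and 7 members passed, the same counts as without it. Same-numbered libraries did not deviate together (r of -0.05 to 0.07 over 18 pairs). Whether the numbers pair the samples is not stated, and the lack of a shared deviation cannot exclude it.

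Reversed directions were all at values that had not passed in the main model. For U2AF2, 4SU+UVA against untreated was -0.16 under median centring, where it passed (limma adjusted p = 0.042). It was -0.04 under quantile normalisation and -0.01 without untreated replicate 1 or 4SU+UVA replicate 1 or 3, and up to 0.06 without 4SU+UVA replicate 2. The U2AF2 change was -0.03 with 4SU under median centring, and 0.00 for 4SU+UVA against UVA without 4SU+UVA replicate 2. PRPF8 with 4SU was 0.02 without 4SU replicate 2. With UVA alone, median centring gave -0.05 for PRPF8, -0.03 for SF3B2, -0.02 for SF3A1 and U2AF2 and -0.07 for DHX15, which was -0.02 under quantile normalisation and without untreated replicate 1 and -0.00 without UVA replicate 1 but 0.03 without untreated replicate 2. For SF3B1, 4SU+UVA against 4SU was -0.31 to 0.12 and the interaction -0.27 to 0.16, from without 4SU replicate 1 to without 4SU replicate 3, and the interaction was 0.02 without 4SU+UVA replicate 1. Of single members' values over the alternatives, 1208 kept direction and side of the threshold, 13 lost the threshold, 10 gained it and 19 reversed. The reversed ones include the U2AF2 value that passed under median centring. Depth limits SF3B1 most, at 123 to 598 reads per library.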
